A study of Mus musculus with 27 samples.

Results

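Mouse splenic B cells were stimulated for 3 h with or without disulfiram (DSF), and 7 genes were followed: Efr3b, Xirp1, Muc3, Sphk1, E330020D12Rik, BC028777 and Mir212. They were chosen by name from the 54532 genes of the count tables, as genes read at or near 0 in stimulated vehicle cultures and higher with DSF under both stimuli in experiment 1. Those DSF-over-vehicle values chose the genes, so they are given here as a description and with no test. The naming as near-silent held only in part: E330020D12Rik and Efr3b were read in every vehicle library of experiment 1. Sphk1 was read in every stimulated vehicle library there, with more reads under IL-4 and anti-CD40 than under LPS. By biotype, 4 of the 7 were protein-coding genes, 2 were processed transcripts and 1 was a microRNA (miRNA) hairpin.

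Pan-B cells were negatively selected from the spleens of wild-type C57BL6 mice, and poly(A) RNA was sequenced. LPS, which signals through TLR4, stands for T cell-independent activation, and IL-4 with an anti-CD40 antibody stands for T cell help. In experiment 1, 5 groups had 4 libraries each: unstimulated cells without inhibitor (NS), LPS without inhibitor (LPS), LPS with 1 uM DSF (LPSDSF), IL-4 plus anti-CD40 without inhibitor (IL4CD40), and the same with 1 uM DSF (IL4CD40DSF). Groups without inhibitor are called vehicle. In experiment 2, 7 conditions had 1 library each: NS, and each stimulus with DMSO, with 1 uM DSF or with 1 uM ibrutinib, an inhibitor of the kinase BTK. All cells were wild type, so no group carried an allele that another lacked, and the cells were a negatively selected culture, not a sorted population.

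DSF is best known as an inhibitor of aldehyde dehydrogenase and as a drug for alcohol dependence. The genes do unlike things. Efr3b encodes a palmitoylated anchor that brings the phosphatidylinositol 4-kinase PI4KA to the plasma membrane, where the kinase makes PI4P. Sphk1 encodes sphingosine kinase 1, which makes the lipid messenger sphingosine-1-phosphate. Xirp1 encodes an actin-binding protein with Xin repeats that is known from the cell junctions of striated muscle, and Muc3 encodes a membrane mucin known from gut epithelium. Mir212 is a miRNA hairpin clustered with Mir132, and the pair is known as a target of the transcription factor CREB in neurons. E330020D12Rik and BC028777 are annotated without a coding sequence.

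The sequences of the Mir212 and Mir132 hairpins' mature products are shown because the cluster lay in a host transcript that moved with DSF. Capitals mark the seed, bases 2 to 8, in the RefSeq sequences of GRCm38.p6.
mmu-miR-212-5p: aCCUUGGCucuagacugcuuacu
mmu-miR-212-3p: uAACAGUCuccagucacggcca
mmu-miR-132-5p: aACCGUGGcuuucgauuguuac
mmu-miR-132-3p: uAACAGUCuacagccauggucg
The 3p arms of both hairpins shared the seed AACAGUC and were identical at 17 of 22 positions, whereas the 5p arms had different seeds. The libraries held poly(A) RNA, so the reads counted at Mir212 came from long transcripts across the hairpin and say nothing of the amount of mature miRNA.

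Promoter windows of RefSeq, 250 bases before to 50 bases after a start site, were at hand for 4 of the 7 genes: Efr3b, Muc3, Sphk1 and E330020D12Rik. The 150 bases before the start site are shown for Efr3b and E330020D12Rik and for the first 2 of the 5 Sphk1 start sites, on the gene's strand, with matched motifs in capitals.
Efr3b, chr12:4038916-4039065, minus strand: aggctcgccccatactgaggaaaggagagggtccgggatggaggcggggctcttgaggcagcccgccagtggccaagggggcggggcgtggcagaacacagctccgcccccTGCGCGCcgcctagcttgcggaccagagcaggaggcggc
E330020D12Rik, chr1:153414234-153414383, minus strand: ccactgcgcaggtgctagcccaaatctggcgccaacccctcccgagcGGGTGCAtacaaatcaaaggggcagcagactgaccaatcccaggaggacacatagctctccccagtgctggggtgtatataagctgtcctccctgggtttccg
Sphk1, first start site, chr11:116530950-116531099, plus strand: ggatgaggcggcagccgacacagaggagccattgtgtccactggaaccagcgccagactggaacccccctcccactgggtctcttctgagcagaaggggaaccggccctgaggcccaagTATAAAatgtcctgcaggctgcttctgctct
Sphk1, second start site, chr11:116531687-116531836, plus strand: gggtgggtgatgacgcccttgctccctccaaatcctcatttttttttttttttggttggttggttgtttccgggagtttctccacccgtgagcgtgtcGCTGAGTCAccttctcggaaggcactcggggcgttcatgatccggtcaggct
Motifs were searched on both strands. The metal response element core, TGCACNC or TGCGCNC, was found once each in the Efr3b, E330020D12Rik and Muc3 windows and in the last 2 Sphk1 windows, which overlap each other, and 25.7% of all 32851 promoter windows held it. The first Sphk1 window held TATAAA, found in 13.6% of windows. The second held the AP-1 letters TGAGTCA, found in 5.20% of windows, and overlapping them on the other strand the antioxidant response element core TGACNNNGC, found in 12.4%. The third Sphk1 window overlaps the second and holds the same letters. The Muc3 window starts within Gm3054, runs beyond it, lies apart from the Muc3 gene of the count table, and is not printed. The heat shock element, GAA, TTC and GAA or TTC, GAA and TTC with 2 bases between each, was in 0.603% of all windows and in none of these, and the CREB site TGACGTCA was in 1.79% of all windows and in none of these. A match is a run of letters and not a shown site, and an absent match speaks only for these windows.

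The libraries held 17804851 to 23632992 assigned reads in experiment 1 and 16049295 to 24619776 in experiment 2. In experiment 1, IL4CD40 vehicle libraries 3 and 4 lay apart from libraries 1 and 2 in many genes that DSF raised. Over 461 other genes raised at least 4-fold by DSF with LPS, the median log2(CPM + 0.5), with CPM the read count relative to the library's TMM-scaled total, was 0.30 and 0.31 in vehicle libraries 1 and 2, 0.82 in library 3 and 1.05 in library 4. The same median was 0.24 to 0.36 in the LPS vehicle libraries and 2.16 to 2.37 in the IL4CD40DSF libraries. The cause was not tested, and ratios of the 7 genes to IL4CD40 vehicle are therefore given with and without libraries 3 and 4. The NS libraries also split into 1 and 2 against 3 and 4, for Sphk1, for E330020D12Rik and for several cell type markers. In NS libraries 1 to 4, the B cell marker Cr2 had 2691, 2706, 22440 and 18211 reads. The myeloid marker Cd14 had 802, 810, 34 and 40. The cause of this split was not tested. Summed B cell markers (12 of 12 in the files) were at 10238 to 12378 CPM in stimulated vehicle libraries and at 8762 to 9987 CPM with DSF, and none of the 12 was at 0. A lower count in such bulk samples can come from fewer cells or from less RNA per cell, and these cannot be told apart. Over the vehicle and DSF libraries of both stimuli, summed markers of plasma cells stood at 1380 to 2334 CPM, of myeloid cells at 155 to 297, of stromal and endothelial cells at 29.8 to 170, of T cells at 39.6 to 64.5, of neutrophils at 10.9 to 21.7, of erythroid cells and platelets at 3.52 to 7.13 and of NK cells at 1.16 to 2.83. With IL4CD40 each of these sums was higher with DSF without overlap, as for myeloid cells at 235 to 297 against 175 to 200 CPM. With LPS those of plasma cells, T cells and neutrophils were higher, the stromal sum was lower, and the others overlapped. In experiment 2 each was higher with DSF, save the plasma cell and stromal sums with LPS. Myeloid markers there rose from 28.7 to 79.7 CPM with LPS. The part of such cells in the 7 genes' reads was not tested.

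**Figure D1:**
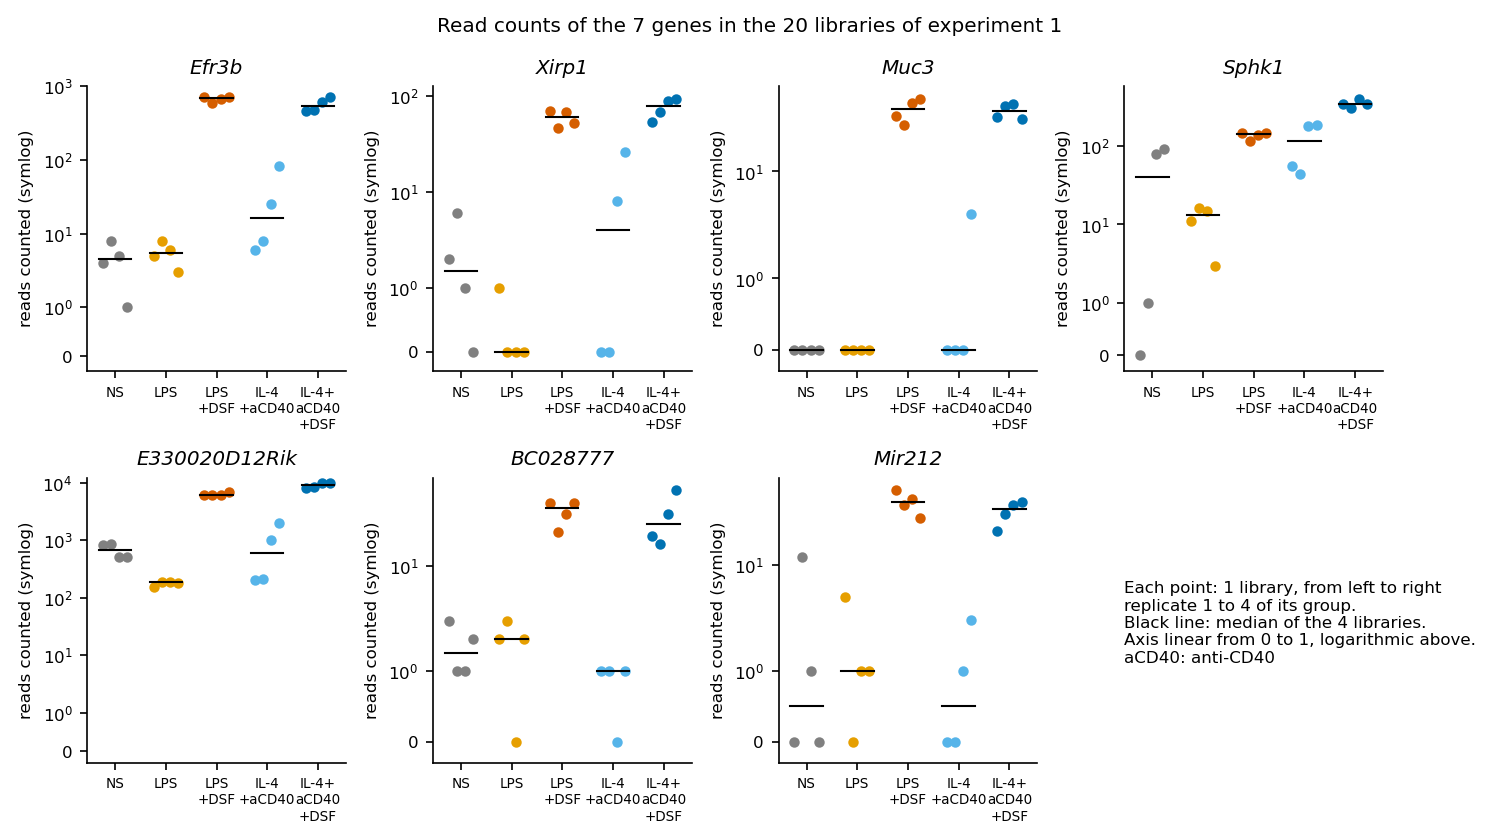
Read counts (vertical axis, linear from 0 to 1 and logarithmic above) of each gene in the 20 libraries of experiment 1, by group; each point is 1 library, with replicates 1 to 4 from left to right, and the black line is the median of 4. The DSF libraries lie above every vehicle library of their stimulus for all 7 genes, and IL4CD40 vehicle libraries 3 and 4 lie above libraries 1 and 2 for 5 of them.

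Efr3b (ENSMUSG00000020658, chr12:3962554-4038915, minus strand) had the most reads of the coding genes with DSF. It had 4, 8, 5 and 1 reads in the NS libraries, 5, 8, 6 and 3 with LPS, and 719, 600, 677 and 728 with LPSDSF. It had 6, 8, 25 and 84 reads with IL4CD40, and with IL4CD40DSF 459, 478, 609 and 724. The DSF and vehicle ranges did not overlap, and the highest vehicle values were those of IL4CD40 libraries 3 and 4. Mean level was 40.6 ± 4.41 CPM (SD, n = 4) with LPSDSF against 0.268 ± 0.0813 with LPS, a 151-fold ratio of means. With IL4CD40 the ratio was 17.7 over all libraries and 85.0 without vehicle libraries 3 and 4.

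Sphk1 (ENSMUSG00000061878, chr11:116530925-116536674, plus strand) had 0, 1, 79 and 90 reads in NS libraries 1 to 4, 11, 16, 15 and 3 with LPS, and 146, 114, 137 and 144 with LPSDSF. With IL4CD40 it had 56, 44, 177 and 184 reads, against 341, 304, 396 and 341 with DSF. Unstimulated libraries 3 and 4 thus held more Sphk1 than any LPS vehicle library, and the LPSDSF range overlapped that of IL4CD40 vehicle on the CPM scale. The ratio of means was 14.8 with LPS. With IL4CD40 it was 3.02, or 7.29 without libraries 3 and 4, in which Sphk1 stood at 47.7% and 57.5% of the mean with DSF.

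Xirp1 (ENSMUSG00000079243, chr9:120013755-120023598, minus strand) had 2, 6, 1 and 0 reads in NS, 1, 0, 0 and 0 with LPS, and 69, 46, 68 and 52 with LPSDSF. Counts with IL4CD40 were 0, 0, 8 and 26, and with DSF 53, 68, 87 and 93. Apart from IL4CD40 libraries 3 and 4, no library without DSF held more than 6 reads. With a single read in the LPS vehicle group, the ratio of means was 294, with a 95% exact interval of 50.1 to 11172 that covers counting error only. With IL4CD40 it was 8.43 over all libraries. Against libraries 1 and 2 alone, both at 0, it was at least 26.3-fold higher, taking 3 reads per library as the limit that a count of 0 allows.

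Muc3 (ENSMUSG00000037390, chr5:137134922-137149322, minus strand) was the one gene at 0 in all NS and all LPS vehicle libraries. It had 33, 27, 44 and 48 reads with LPSDSF, at least 15.1-fold more than that limit. With IL4CD40 it had 0, 0, 0 and 4 reads and with DSF 32, 41, 43 and 31, a ratio of 34.2. Without libraries 3 and 4 it was at least 12.98-fold higher. A separately annotated gene of the same name stem, Muc3a (chr5:137208813-137212389, same strand), had 14 to 30 reads with LPS and 26 to 45 with LPSDSF, and reads from near-identical repeats could have been split between these genes.

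E330020D12Rik (ENSMUSG00000073538, chr1:153404827-153414233, minus strand) was the most abundant of the 7 per length, at 160 ± 8.87 FPKM with LPSDSF and 193 ± 9.15 FPKM with IL4CD40DSF (SD, n = 4). It had 830, 859, 525 and 525 reads in NS, 157, 192, 192 and 184 with LPS, and 6081, 6077, 6099 and 6885 with LPSDSF. In IL4CD40 cultures it had 204, 212, 1020 and 1986 reads, and with DSF 8316, 8489, 10095 and 10081. LPS vehicle libraries were below every NS library, and DSF libraries were above both. The ratio of means was 41.2 with LPS and 10.6 with IL4CD40, the latter 46.8 without libraries 3 and 4.

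BC028777 (ENSMUSG00000085185, chr17:24208861-24221730, plus strand) had 3, 1, 1 and 2 reads in NS, 2, 3, 0 and 2 with LPS, and 39, 21, 31 and 39 with LPSDSF. Counts with IL4CD40 were 1, 1, 0 and 1, and with DSF 19, 16, 31 and 52. IL4CD40 vehicle libraries 3 and 4 did not stand above 1 and 2 for this gene. The ratio of means was 22.9 with LPS. With IL4CD40 it was 38.9, with an exact interval of 13.5 to 199, since the vehicle group held 3 reads in all, and without libraries 3 and 4 it was 30.5 (8.43 to 260).

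Mir212 (ENSMUSG00000065590, chr11:75173388-75173478, plus strand) had 0, 12, 1 and 0 reads in NS, 5, 0, 1 and 1 with LPS, and 51, 37, 42 and 28 with LPSDSF. With IL4CD40 it had 0, 0, 1 and 3 reads, and with DSF 21, 30, 37 and 39. The 12 reads of NS library 2 were its highest value without DSF. The ratio of means was 27.2 with LPS and 30.3 with IL4CD40, where it was at least 11.1-fold higher than libraries 1 and 2 alone.

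In experiment 1, every DSF library was above every vehicle library for 7 of 7 genes with LPS and for 7 of 7 with IL4CD40. The same held for 30.3% and 30.6% of all genes tested. All 7 passed the filter on low counts. Since this contrast chose the genes, nothing is read from their count. Over 20 libraries the log2(CPM + 0.5) values of the 21 pairs of these genes correlated at Pearson's r of 0.649 to 0.987. Sphk1 stood somewhat apart: the pairs without it lay at 0.879 or above, those with it at 0.809 or below. The points share their libraries and the DSF contrast that chose the genes.

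**Figure D2:**
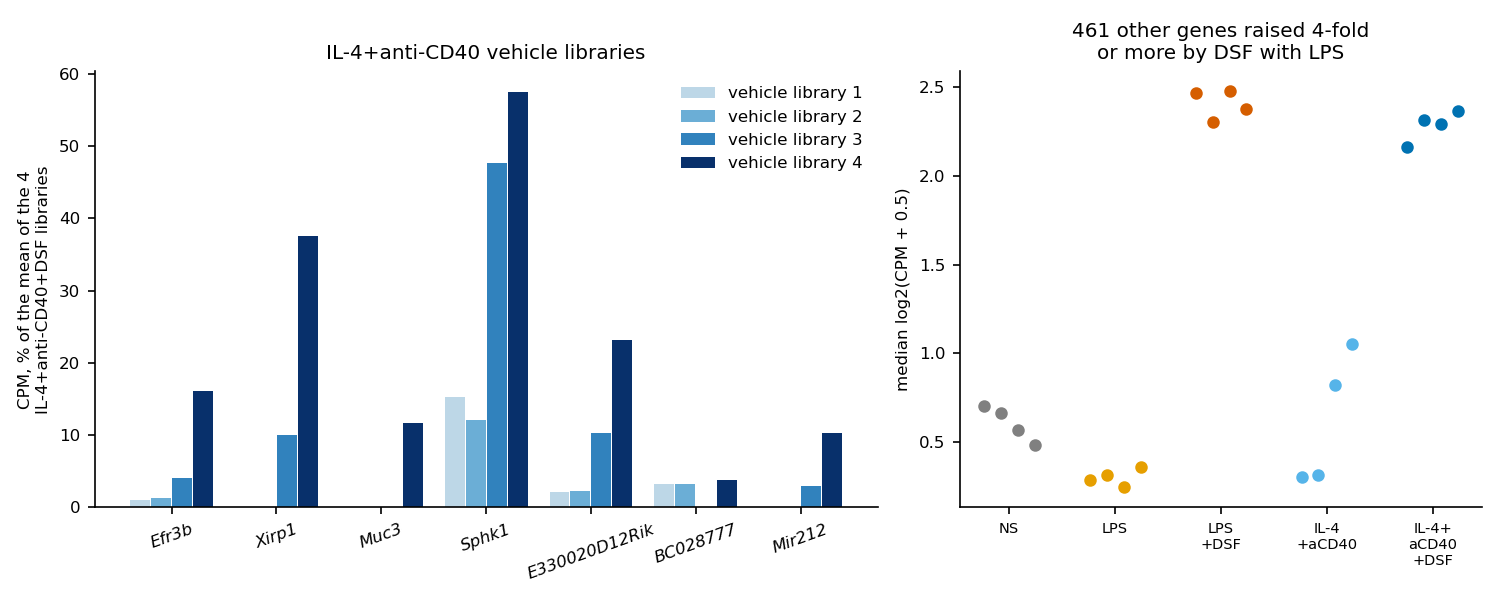
Left, the CPM of each gene in IL4CD40 vehicle libraries 1 to 4 as a percentage of the mean of the 4 IL4CD40DSF libraries (bars). Right, the median log2(CPM + 0.5) of 461 other genes raised 4-fold or more by DSF with LPS, 1 point per library of experiment 1. Library 4 reached 57.5% of the DSF mean for Sphk1 and 37.5% for Xirp1, and libraries 3 and 4 lay between the other vehicle libraries and the DSF libraries in the right panel.

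Experiment 2 was not used to choose the genes. With 1 library per condition no test was made, and ratios are given with exact 95% intervals for counting error only. Of 14275 genes with a mean of 10 reads or more, those higher by 2-fold or more with DSF (log2 ratio with a prior count of 2) were 20.3% with LPS and 21.9% with IL4CD40. All 7 genes were past it with both stimuli. Efr3b, Xirp1, Muc3, BC028777 and Mir212 reached a mean of 10 reads only through their DSF libraries. A fall could not have been called for these, so this count is not a result. Xirp1 had 421 reads with LPSDSF and 311 with IL4CD40DSF, against 0 in all 5 other libraries. Muc3 likewise had 208 and 107 reads against 0 in the other 5. These were at least 151-fold and 135-fold higher than vehicle for Xirp1, and at least 74.5-fold and 46.4-fold higher for Muc3.

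Efr3b had 4 reads with LPS and 1222 with LPSDSF, a ratio of 328 (128 to 1207), and 0 with IL4CD40 against 669 with DSF, at least 290-fold higher. Sphk1 had 0 reads with LPS and 548 with DSF, at least 196-fold higher. With IL4CD40 it was again read without DSF, at 42 against 486 reads, a ratio of 15.0 (11.0 to 21.1). In unstimulated cells Sphk1 was at 0 reads here, as in NS libraries 1 and 2 of experiment 1 to within 1 read.

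E330020D12Rik had 460 reads in NS, 155 with LPS and 131 with IL4CD40, so it was again not silent. With DSF it had 11358 and 11264 reads, ratios of 78.8 (67.2 to 92.9) with LPS and 112 (94.1 to 134) with IL4CD40. BC028777 had 0 reads with LPS and 97 with LPS and DSF, at least 34.7-fold higher, and 2 with IL4CD40 against 62, a ratio of 40.3 (10.7 to 340). Mir212 had 0 reads with either vehicle, 323 with LPSDSF and 134 with IL4CD40DSF, at least 116-fold and 58.1-fold higher.

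Ibrutinib at the same 1 uM left the genes at or near their vehicle counts. Past 2-fold higher were 0 of 7 genes with LPS, against 2.81% of all genes, and 1 of 7 with IL4CD40, against 2.23%. The 1 gene was Efr3b, at 7 reads against 0, at least 1.65-fold higher. Efr3b, Xirp1, Muc3, BC028777 and Mir212 had 9 reads or fewer in each ibrutinib and DMSO library. They were among the genes counted only through their DSF libraries, so neither count is a result. E330020D12Rik gave the tightest values, with ratios of 1.00 (0.808 to 1.24) with LPS and 0.982 (0.780 to 1.24) with IL4CD40. Sphk1 had 49 reads with ibrutinib and 42 with DMSO under IL4CD40, a ratio of 0.825 (0.535 to 1.28). Xirp1 and Muc3 were at 0 with ibrutinib under both stimuli. At matched dose and time, E330020D12Rik was 78.7 times as high with DSF as with ibrutinib in LPS cultures (68.5 to 90.8).

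**Figure D3:**
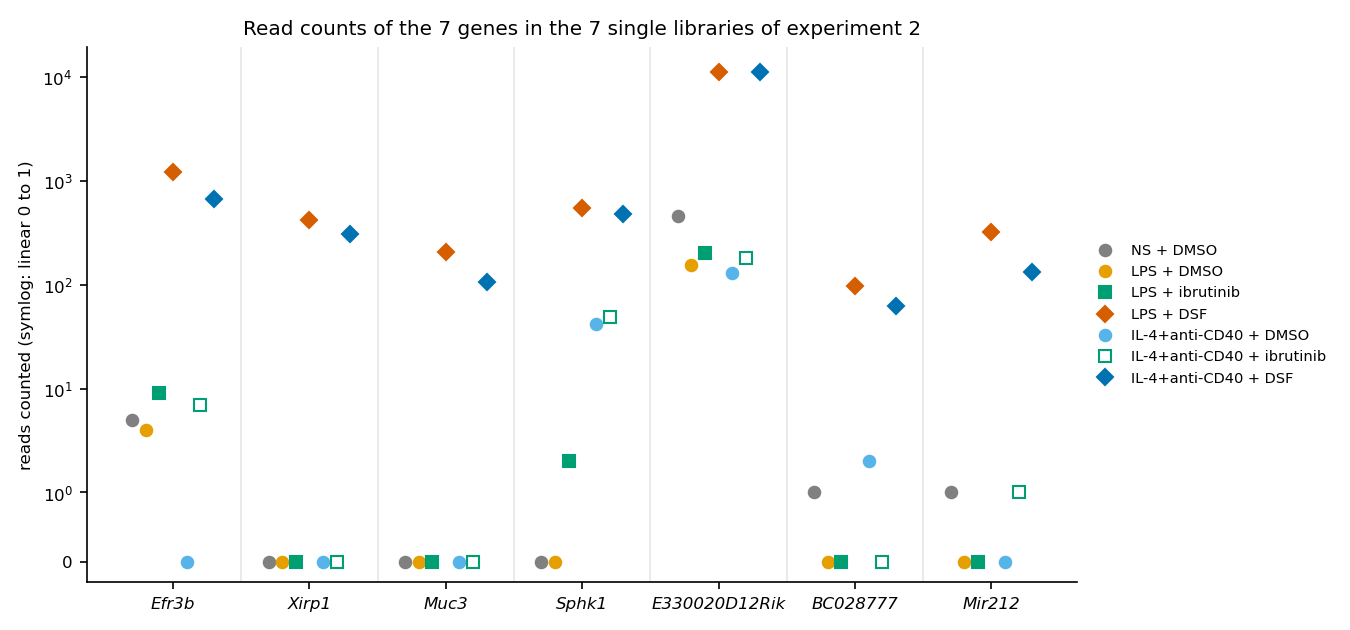
Read counts (vertical axis, linear from 0 to 1 and logarithmic above) of the 7 genes in the 7 single libraries of experiment 2; colour and shape give the stimulus and inhibitor. Both DSF libraries (diamonds) lie above all others for each gene, and the ibrutinib libraries (squares) lie with the DMSO libraries (circles).

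The next comparison sets the DSF-treated cultures of the 2 stimuli against each other. Their values entered the choice of genes, but which stimulus gave the higher level did not. By edgeR's quasi-likelihood test across 14352 genes, 2 of 7 were higher with LPSDSF and 2 of 7 were lower, against 21.8% and 23.3% of all genes. Sphk1 was lower with LPSDSF, at 8.08 ± 1.10 CPM against 16.8 ± 1.26 with IL4CD40DSF, a log2 difference of -1.04 ± 0.11 (SE, adjusted p = 5.35e-07). E330020D12Rik was also lower, by a small margin, with a log2 difference of -0.24 ± 0.05 (edgeR adjusted p = 0.00116). Efr3b was higher, at 40.6 against 27.4 CPM, with a log2 difference of 0.58 ± 0.10 (edgeR adjusted p = 0.000176). Mir212 was higher by 0.64 ± 0.25 (edgeR adjusted p = 0.0482), a call lost in 7 of the 8 fits with 1 library left out (adjusted p of 0.0515 to 0.167) and kept without LPSDSF library 4.

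Xirp1, Muc3 and BC028777 did not pass the test, which does not show that they were alike. Their log2 differences lay within 95% intervals of -0.42 to 0.36, -0.10 to 0.82 and -0.16 to 1.09. In the single libraries of experiment 2, LPSDSF over IL4CD40DSF was 1.52 (1.38 to 1.68) for Efr3b, 0.840 (0.819 to 0.863) for E330020D12Rik and 2.01 (1.64 to 2.48) for Mir212. For Sphk1 it was 0.940 (0.830 to 1.06), an interval whose lower bound lies far above the experiment 1 difference, so the lower level with LPS was not seen there. When all 20 libraries were fitted together, none of the 7 passed in this comparison (edgeR adjusted p of 0.211 for Sphk1 and 0.227 for Efr3b).

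**Figure D4:**
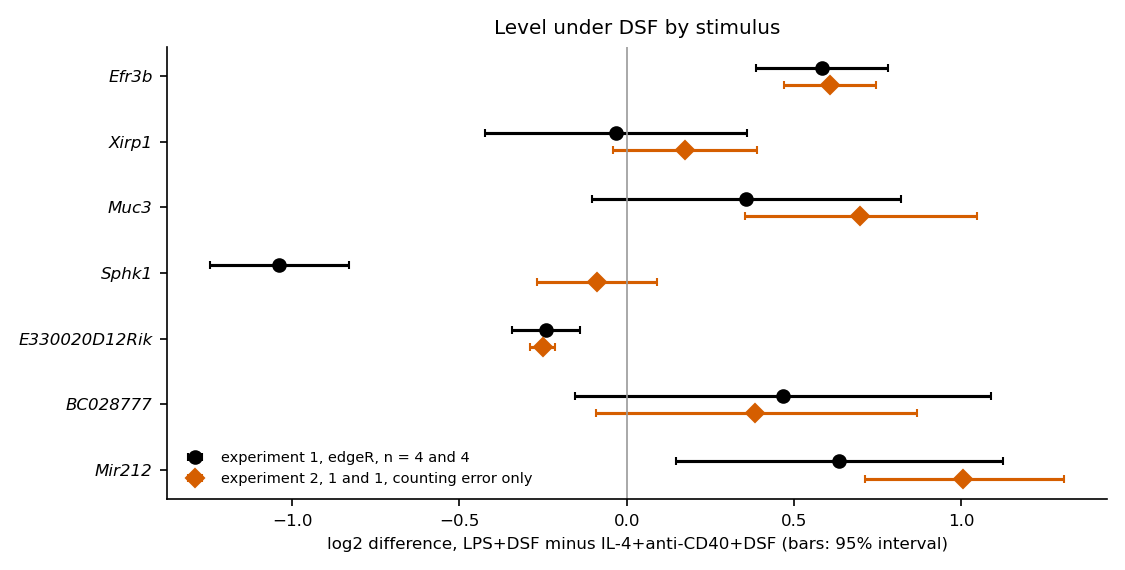
Log2 difference in level between LPSDSF and IL4CD40DSF (horizontal axis) for each gene, in experiment 1 (circles, edgeR, 4 against 4 libraries) and experiment 2 (diamonds, 1 against 1). Bars are 95% intervals, which in experiment 2 cover counting error only. Sphk1 stands at -1.04 in experiment 1 and near 0 in experiment 2.

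The difference of the DSF effect between stimuli rests on the contrasts that chose the genes, so it is a description and carries no p here. The log2 effect with LPS exceeded that with IL4CD40 by 3.04 ± 0.78 (SE) for Efr3b, 4.48 ± 1.49 for Xirp1, 2.30 ± 0.58 for Sphk1 and 2.02 ± 0.66 for E330020D12Rik. These 4 of 7 genes were past edgeR's threshold for the interaction, as were 14.9% of all genes in either direction, and nothing is read from that count. Without IL4CD40 library 4 alone the differences were 1.75 for Efr3b, 2.79 for Xirp1, 1.92 for Sphk1 and 1.08 for E330020D12Rik. Without IL4CD40 vehicle libraries 3 and 4 they were 0.89, -1.58, 1.06 and -0.089.

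The genes beside and across these loci were taken by position. Of 20 such genes, 12 had enough reads to be tested with each stimulus. With LPS, 9 rose and 1 fell with DSF, and with IL4CD40, 7 rose and 1 fell (edgeR, adjusted p under 0.05). Of all genes, 35.1% rose and 36.0% fell with LPS, and 30.1% rose and 31.6% fell with IL4CD40. Without IL4CD40 libraries 3 and 4, 7 of the neighbours rose and 2 fell with IL4CD40, and of the pathway genes described further on 63 rose and 20 fell, against 63 and 21 with them.

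Mir212 lies on the same strand inside 1700016P03Rik, a processed transcript at chr11:75172560-75177633, so reads at the hairpin cannot be told apart from reads of its host. The host had 7 to 19 reads with LPS and 148 to 220 with LPSDSF, a log2 fold change of 4.23 ± 0.21 (edgeR adjusted p = 4.85e-15), and rose by 3.55 ± 0.35 with IL4CD40 (edgeR adjusted p = 7.00e-06). Mir132, which starts 204 bases beyond Mir212, had 0 to 3 reads with LPS and 20 to 43 with LPSDSF. Its log2 fold changes were 4.72 ± 0.46 (edgeR adjusted p = 1.74e-09) and 3.25 ± 0.47 (edgeR adjusted p = 0.000112). Mir132 and the host had too few vehicle reads to pass the filter on low counts without their DSF libraries. A fall could not have been called for them, so their place among the neighbours that rose is not a result. On the other side and strand, Hic1, a transcriptional repressor, rose by 2.08 ± 0.17 and 1.62 ± 0.18 (edgeR adjusted p = 5.02e-11 and 1.61e-05). In experiment 2, Mir132 had 224 and 78 reads with DSF and 0 with either ibrutinib library.

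BC028777 overlaps Tedc2 and Tbc1d24 on the opposite strand and ends 1502 bases from Ccnf, which encodes cyclin F. All of these rose: Ccnf by 2.91 ± 0.09 with LPS and 2.36 ± 0.14 with IL4CD40 (edgeR adjusted p = 1.82e-19 and 8.01e-07), Tedc2 by 2.05 ± 0.14 and 1.22 ± 0.15 (edgeR adjusted p = 3.29e-12 and 2.75e-05), and Tbc1d24 by 1.30 ± 0.22 and 0.77 ± 0.15 (edgeR adjusted p = 1.21e-05 and 0.00116). The labels leave the strand setting of the libraries unstated, so reads of BC028777 and of its antisense partners cannot be told apart where they overlap.

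The other loci differed. Xirp1 lies within the annotated span of Cx3cr1 on the same strand. That chemokine receptor had 527 to 640 reads in NS, 7 to 15 with LPS and 3 to 10 with LPSDSF, and did not pass the test with either stimulus (edgeR adjusted p = 0.527 and 0.0657). With IL4CD40 it was lower, and passed under some other settings, total counts among them. In experiment 2 it had 1 and 2 reads with DMSO and 14 and 7 with DSF. Beside Muc3, the antiviral ubiquitin ligase gene Trim56 was lower in LPSDSF, with a log2 fold change of -0.19 ± 0.04, and in IL4CD40DSF, with -0.44 ± 0.08 (edgeR adjusted p = 0.000207 and 0.000397). Beside E330020D12Rik, the laminin gene Lamc1 rose by 0.57 ± 0.05 and 1.31 ± 0.11 (edgeR adjusted p = 3.35e-10 and 3.06e-06), and Shcbp1l did not pass. Ube2o beside Sphk1 and Pomc beside Efr3b rose with LPS, by 0.32 ± 0.05 and 0.89 ± 0.35 (edgeR adjusted p = 1.85e-06 and 0.0277), and did not pass with IL4CD40. The Pomc call was lost under 5 of 14 other settings, with adjusted p of 0.0528 to 0.215, among them leaving out LPS library 2 or LPSDSF library 4. In experiment 2 Pomc was higher with DSF under both stimuli, with ratios of 8.60 (3.91 to 22.4) and 5.85 (2.37 to 17.3). The rise of Ube2o with LPS was not seen there. Its ratios were 0.923 (0.859 to 0.991) with LPS and 0.994 (0.921 to 1.07) with IL4CD40. The 8 genes not tested, at 18 reads or fewer in any library, were Gm48001 and Gm48122 at Efr3b, Gm49427 and Gm33858 at Xirp1, Gm3054 at Muc3, Gm29292 and Rpl36-ps1 at Sphk1, and Gm43796 at BC028777.

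**Figure D5:**
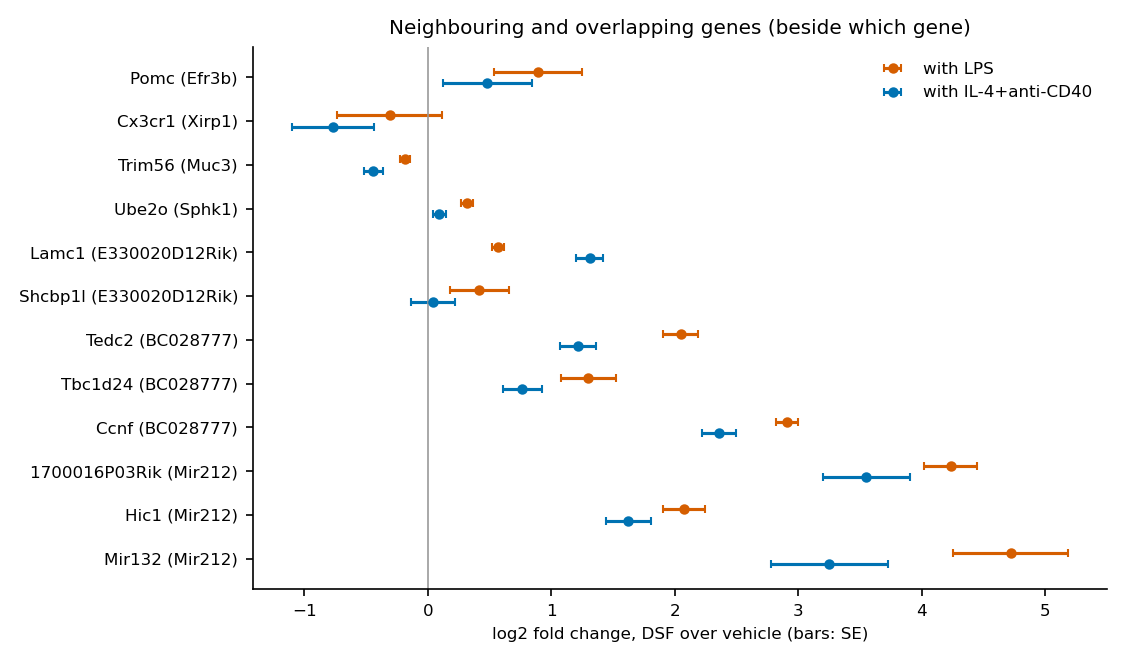
Log2 fold change of DSF over vehicle (horizontal axis, bars are SE, 4 against 4 libraries, edgeR) for the 12 tested genes that overlap or flank the 7 genes, named in brackets. Host and neighbours of Mir212 and BC028777 lie at the right, and Cx3cr1 and Trim56 lie left of 0.

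The pathways that the genes belong to were read from hand-made lists, without the 7 genes themselves. Some list genes near 0 in vehicle, Mir132 and Mcam among them, could pass the filter on low counts only through their DSF libraries. A fall could not have been called for those, and they are in the counts of genes that rose. Over the 6 lists, 65 of 112 tested genes rose and 24 fell with LPS, so 73.0% of those that passed rose, and with scaling by total counts this share was 59.8%. Over all genes that passed, 49.4% rose, and 34.2% with total counts. With that scaling the median log2 fold change of all genes moved to -0.21 with LPS and to -0.16 with IL4CD40. For each list below, the values over all genes with TMM scaling were 35.1% raised and 36.0% lowered with LPS, with a median of 0.00. With IL4CD40 they were 30.1%, 31.6% and -0.02. Among the enzymes and receptors of sphingosine and ceramide metabolism, 15 of 36 tested rose and 11 fell with LPS, and 15 of 38 rose and 8 fell with IL4CD40. The list's median log2 fold change was 0.09 and 0.10, beside 0.00 and -0.02 over all genes. The sphingosine-1-phosphate receptor S1pr1 rose by 1.99 ± 0.06 and 1.87 ± 0.20 (edgeR adjusted p = 5.73e-19 and 1.42e-05), and Sgpl1, the lyase that breaks sphingosine-1-phosphate down, by 1.68 ± 0.04 and 1.33 ± 0.14 (edgeR adjusted p = 9.76e-22 and 1.11e-05). The phosphatase gene Sgpp1 fell by 1.55 and by 1.36 (edgeR adjusted p = 3.57e-15 and 1.26e-06). Sphk2, which encodes the other sphingosine kinase, stood at -0.04 and -0.05 and did not pass.

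Of 16 tested genes of plasma membrane PI4P synthesis and use, 8 rose and 5 fell with LPS, and 9 rose and 6 fell with IL4CD40, with medians of 0.20 and 0.36. Pip5k1c and Pip5k1b, kinases that turn PI4P into PI(4,5)P2, and Pi4k2b, a kinase that makes PI4P, had the largest mean change over both stimuli among genes called in 1 direction with both. Their log2 fold changes with LPS were 1.69 ± 0.04, 0.92 ± 0.24 and 1.70 ± 0.08, and with IL4CD40 1.44 ± 0.20, 2.04 ± 0.15 and 1.39 ± 0.10. Efr3a, the paralogue of Efr3b, fell by 0.32 and by 0.40, and the kinase gene Pi4ka that both anchors serve stood at -0.04 with LPS, short of the test, and fell by 0.21 with IL4CD40 (edgeR adjusted p = 0.0222).

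In the list of Xin repeat and actin junction genes, 9 of 13 tested rose with each stimulus, while 2 fell with LPS and 1 with IL4CD40, with medians of 0.63 and 0.66. Vcl (vinculin) rose by 2.01 ± 0.07 and 1.51 ± 0.19, and Ctnna1 (alpha-catenin) by 1.66 ± 0.04 and 1.55 ± 0.14. The related Xirp2 and the muscle genes Nrap, Flnc and Csrp3 were too low to test. Summed striated muscle markers (11 listed) stayed at 2.45 to 5.33 CPM with LPS and 2.51 to 3.62 with LPSDSF, and Mb was at 0 in every library of experiment 1. With IL4CD40 they were at 6.71 to 9.76 CPM, and with DSF at 2.65 to 4.47.

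Among mucins and mucin-like genes only 5 of 16 could be tested, of which 4 rose with LPS and 3 with IL4CD40, and none fell. Mcam, at 0.288 CPM with LPS and 0.356 with IL4CD40, could pass the filter on low counts only through its DSF libraries. So could Muc3a with IL4CD40, at 0.282 CPM. For these a fall could not have been called, so their rises there are not a result. Mcam rose by 2.06 ± 0.36 and 1.78 ± 0.34, Muc3a by 1.12 ± 0.27 and 2.42 ± 0.48, and Cd164 by 0.36 ± 0.04 and 0.36 ± 0.05. Medians were 0.85 and 0.42. Summed epithelial markers (8 listed, mostly Epcam reads) were at 22.7 to 23.6 CPM with LPS and 46.8 to 57.2 with LPSDSF, while Cldn3 and Krt19 were at 0 in every library of experiment 1. They were at 106 to 112 CPM with IL4CD40 and 135 to 148 with DSF. These ranges are of experiment 1. In experiment 2 the sums were 22.1 CPM with LPS, 47.2 with LPSDSF, 78.9 with IL4CD40 and 66.3 with IL4CD40DSF. The part of such cells in the Muc3 reads was not tested.

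For the cluster of Mir212, 20 of 27 tested CREB and immediate early genes rose and 4 fell with LPS, and 17 rose and 5 fell with IL4CD40, with medians of 0.50 and 0.45. Mir132 is among those that rose, and its rise is not a result. Besides Mir132, the nuclear receptor gene Nr4a2 rose by 3.24 ± 0.11 and 2.91 ± 0.23 and the stress-responsive factor Atf3 by 2.86 ± 0.05 and 2.47 ± 0.20. The coactivator genes Crtc1, Crtc2 and Crtc3 fell with both stimuli, and Creb1 stood at 0.00 and -0.03. Of genes known as targets of miR-132 and miR-212, 9 of 15 tested rose and 2 fell with LPS, and 10 of 15 rose and 1 fell with IL4CD40, with medians of 0.39 and 0.35. Cdkn1a (p21) rose by 2.37 ± 0.05 and 1.47 ± 0.29, Sirt1 by 1.23 ± 0.04 and 1.21 ± 0.08, and Btg2 by 0.71 ± 0.04 and 1.60 ± 0.12.

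Over all genes, a mean below 0.5 CPM in both vehicle groups was taken as near-silent. Of the 7 genes, 4 met it: Xirp1, Muc3, BC028777 and Mir212. Xirp1, at 0.431 CPM in its higher vehicle group, was nearest to this limit on the inside, and Efr3b, at 1.54 CPM, was nearest on the outside. The genes under the limit and tested with both stimuli numbered 202, and 157 of them (77.7%) rose with both. Most could pass the filter on low counts only through their DSF libraries, so this share is not a result. By mean CPM over the DSF libraries, Xirp1 ranked 7, Muc3 ranked 30, Mir212 ranked 32 and BC028777 ranked 44 of the 157.

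The 5 most abundant others were Hfm1, Gdf9, Gm14009, Sec16b and Vgf. Hfm1, a helicase of meiotic recombination, stood at 8.51 CPM with LPSDSF against 0.0598 with LPS, and at 7.49 against 0.473 with IL4CD40. Gdf9, an oocyte growth factor, stood at 5.46 against 0.299 and 4.31 against 0.347 CPM. The long non-coding Gm14009 stood at 5.36 against 0.352 CPM with LPS, Sec16b, of endoplasmic reticulum exit sites, at 4.08 against 0.162, and Vgf, a neuropeptide precursor, at 4.66 against 0.392. These were picked by the same vehicle and DSF values and are shown as company, not as a test.

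Genes whose pattern over the 20 libraries was most like each of the 7 were sought among 15575 expressed genes. Efr3b was closest to Zfand2a (r = 0.994), an arsenite-inducible gene of the proteotoxic stress response, then to Atp6v0c and Gm19178. Xirp1 was closest to Impact (r = 0.992), a regulator of the kinase GCN2, then to Atp6v0c and Washc2. Muc3 was closest to Oser1 (r = 0.989), an oxidative stress-responsive gene, then to Dpf1 and Suco. E330020D12Rik was closest to Aff1 (r = 0.988), then to Renbp and Hspa4l, a chaperone of the HSP110 family.

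BC028777 was closest to Kctd19 (r = 0.976), then to 2610306O10Rik and Grhl2. Mir212 was closest to Pi4k2b (r = 0.979), the PI4P kinase gene named above, then to Osbp2 and March7. Sphk1 again stood apart, with its highest value at r = 0.956 for the antisense gene Gm4610, then for Uhrf1 and Slc17a9. All these genes rose with DSF under both stimuli by edgeR. They were picked for likeness to genes that DSF raised, over the same libraries, so their rise is not a result. Zfand2a stood at 22.1 CPM with LPS and 266 with LPSDSF, and Impact at 18.0 and 356, so the likeness is of pattern and not of level. The libraries of each correlation are shared and DSF splits them, so r describes a shared split. The order depends on the measure: Zfand2a ranked 236 for Efr3b by Spearman's rho and 10 without the NS libraries, where Aff1 ranked 20 and Gm4610 ranked 36 for their genes.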

How the data were processed

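RNA-seq of mouse splenic B cells gave 27 libraries, 20 in experiment 1 (4 per group) and 7 single ones in experiment 2. Per the methods and the submitters' processing notes, reads were trimmed with Fastp, mapped with HISAT2 2.0.5 to mm10 and assigned with featureCounts 1.5.0-p3. The authors deposited whole-number counts per gene without normalization, and FPKM values computed from them by the authors. Rows of 54532 genes were given, and totals were 17804851 to 23632992 reads per library in experiment 1 and 16049295 to 24619776 in experiment 2. The counts were used for all tests and the deposited FPKM for levels per length and as an alternative. The library protocol names both a directional and a non-directional option, so strandedness is not given in the sources used here.

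Counts of experiment 1 were tested by quasi-likelihood fits of edgeR 4.0.16 under R 4.3.3, after TMM scaling and the filterByExpr filter. Each fit held only the groups compared, with Benjamini-Hochberg adjustment over all genes at 0.05. DESeq2 1.42.0 was an alternative. The scripts were first tested on simulated counts with known changes. CPM values use TMM library sizes. Experiment 2 was compared as TMM-scaled ratios with exact intervals (scipy 1.17.1), among genes with a mean of 10 reads or more. Floors use 3 reads per library. A legend of the study calls the 4 samples of a group biologically independent. The labels do not say whether they came from separate mice, and p-values measure the spread between these samples. Replicate numbers did not clearly pair the samples of the groups compared, and the NS libraries were not compared in this way.

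The 7 genes and all lists were chosen with earlier results of these data known. Genes were named by a rule: the 7, every overlapping and the nearest flanking gene, the 3 genes per list with the largest mean change among those called in the same direction with both stimuli, the 3 most similar genes, and the 5 most abundant other near-silent genes. Further genes of the lists (Sphk2, Efr3a, Pi4ka, Xirp2, Nrap, Flnc, Csrp3, Creb1 and Crtc1 to Crtc3) were named after their values were seen. The values of 1 gene that the rule names are not reported here. Marker lists of 10 cell types were read as summed CPM. Alternatives were total counts, DESeq2's size factors, no filter, a replicate block, all 20 libraries in 1 fit, and leaving out each library. Leaving out IL4CD40 vehicle libraries 3 and 4 together was added after the data were seen. Coordinates are those of the count table on mm10, and sequences are from RefSeq, GRCm38.p6.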

Additional observations from a re-analysis of the deposited data

Results flagged for a closer look

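Within groups of 4 libraries, 1 library stood far from the other 3 in 4 of 35 checks of a gene in a group. For continuous values chance flags about 1 in 20 groups, a rate that does not hold for counts near 0, where 1 library with reads among 3 at 0 always stands apart. Xirp1 had 1 read in LPS library 1 and 0 in the others. Muc3 had 4 reads in IL4CD40 library 4 and 0 in the others. BC028777 had 0 reads in IL4CD40 library 3 and 1 in each other. Mir212 had 12 reads in NS library 2, against 0, 1 and 0. The first and the third are steps of a single read.

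The DSF effect was larger with LPS than with IL4CD40 by 3.04 on the log2 scale for Efr3b, 4.48 for Xirp1, 2.30 for Sphk1 and 2.02 for E330020D12Rik. These differences are built from the values that chose the genes and are no independent test. Without IL4CD40 vehicle libraries 3 and 4 they were 0.89, -1.58, 1.06 and -0.089.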

How the results depend on the processing

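Of 7 genes, 2 were higher and 2 lower in LPSDSF than in IL4CD40DSF. The higher count was 1 with total counts and 1 with the replicate block, and both counts were 0 when all 20 libraries were fitted together. Leaving out 1 library gave 1 to 2 higher. The interaction, a description here, was past the threshold for 4 genes, for 2 with total counts, 2 with the replicate block, 1 with all 20 libraries, 2 to 4 with 1 library left out, and 1 without IL4CD40 libraries 3 and 4 together. In that last fit it reversed to -1.58 for Xirp1 and to -0.089 for E330020D12Rik. Neighbouring genes lowered numbered 1 with each stimulus. With LPS the number was 0 in the fit of all 20 libraries. With IL4CD40 it was 2, Cx3cr1 added, under total counts, any count as the filter, the replicate block, all 20 libraries, and without IL4CD40 libraries 3 and 4, and 1 to 2 with 1 library left out. With total counts 37 pathway genes were lowered by DSF with LPS, against 24. A prior count of 0.5 gave 1 gene past 2-fold with ibrutinib and LPS and 2 with IL4CD40. Near-silent genes raised numbered 40 under a limit of 0.25 CPM and 355 under 1 CPM. The causes of these changes were not tested.

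Replicate numbers did not clearly pair the samples of the groups compared, with same-number correlations of -0.06 to 0.22. The own number was the best match in 2 of 4 IL4CD40 pairs and in 0 of 4 LPS pairs. The NS libraries were not compared in this way. The replicate block changed no other count by over 1.5 times. In experiment 2, 1 library per condition allows no test. Low counts in vehicle libraries limit the ratios of Xirp1, Muc3, BC028777 and Mir212, and the unknown strand setting limits BC028777.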
